A study of Mus musculus with 8 samples.

Results

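The response of tdTomato+ skin cells to ultraviolet B (UVB) was measured by RNA sequencing in 4 of the 8 libraries of the study: those of mice 3 and 4, which received UVB, against those of mice 1 and 2, which were mock treated, over all genes. All 4 mice were C57BL/6J, carried the ROSA<mTmG> reporter and Tyr:Cre<ERT2>, and were given tamoxifen daily for 10 days from day 21 after birth. Their back skin was depilated on day 50, exposed to 150 mJ/cm2 UVB or to normal light for 3 days, and collected on day 54. In this reporter every cell makes tdTomato until Cre removes it and switches on EGFP, and this Cre is driven by tyrosinase regulatory sequence, so the sorted EGFP+ cells are melanocytes. The tdTomato+ cells are a mixture of every other skin cell, and a melanocyte in which Cre did not act would also carry tdTomato. EGFP+ cells of the same 4 mice gave the remaining 4 libraries, which entered the fit and serve as the comparison. Replicates 1 and 2 without UV are mice 1 and 2, and replicates 1 and 2 with UV are mice 3 and 4.

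UVB is absorbed in the epidermis, where it forms pyrimidine dimers in DNA and starts damage signalling, inflammation and, days later, thickening of the epidermis. Keratinocytes normally leave the basal layer, exchange the keratins Krt5 and Krt14 for Krt1 and Krt10, and end as cornified cells, while injured epidermis makes Krt6 and Krt16 instead. The epidermis also houses Langerhans cells and resident T cells, and UV exposure is known to deplete Langerhans cells and to bring monocytes and macrophages into the skin.

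The 4 tdTomato+ libraries held between 11186363 and 16711981 reads and between 15340 and 17076 detected genes. The EGFP+ libraries held between 13288698 and 16200359 reads. They had 14922 and 15867 detected genes without UV and 14503 and 11186 with UV, the fewest in UV replicate 2. The log2 values of the genes, which do not count as replicates, correlated at r = 0.923 between the libraries without UV, at 0.955 between those with UV and at 0.900 to 0.936 across the groups. Xist had 1103 reads in no UV replicate 1 and at most 4 in the other 3 libraries, and the Y-linked genes together had 9 reads there against 2253 or more elsewhere, so 1 of the 2 mock-treated mice carried female-type transcripts. Both UV mice were of the other type, so sex was not balanced between the groups, and its part in the UV comparison was not tested. Leaving out the tdTomato+ or the EGFP+ library of that mouse moved the count of called genes in opposite directions. Leaving out libraries of other mice moved it as well, and each such fit leaves 1 library in a group. Defining genes of the epidermis and dermis were present in the tdTomato+ libraries, but without the EGFP+ levels beside them they do not check the sort label. The basal keratin Krt14 had 100890 and 136012 normalized reads without UV and 136671 and 126650 with UV, and Dcn, a proteoglycan of fibroblasts, had 7967, 8617, 7252 and 9349.9 in the same order. A normalized read is a read count divided by the size factor of its library, and it is not corrected for gene length, so levels are compared between libraries and not between genes.

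Keratins of the differentiating epidermis (Krt1, Krt10), the Langerhans cell gene Cd207, the epidermal genes Skint5 and Skint9 and the chemokine genes Cxcl10 and Ccl27a fell with UVB. The wound keratin gene Krt6a, the protease inhibitor gene Serpine2, the collagenase gene Mmp13, the macrophage genes Chil3 and C1qa, the polyamine enzyme gene Odc1 and 8 melanocyte genes rose. Of 18070 genes tested, 101 (0.559%) differed at a Benjamini-Hochberg adjusted p under 0.05 by limma, 63 higher (0.349%) and 38 lower (0.210%) with UV. In all 101 the libraries with UV lay on 1 side of both libraries without UV, but separation alone is common at 2 against 2: both UV libraries lay above both no UV libraries in 3899 genes (21.6%) and below them in 4428 (24.5%). These shares are the background for the counts of list members without overlap given below. A list with counts near them does not stand out from all genes. The median difference over all genes tested was -0.09 on the log2 scale. At an unadjusted p under 0.05 there were 2429 genes, edgeR called 240 and DESeq2 629, and all 101 kept their direction in each alternative that gave them a value. The count rests on single libraries: no gene kept its call in more than 3 of the 8 fits that each left out 1 library, and the count was 0 without either replicate of no UV EGFP+ or of UV tdTomato+ cells, 2 without UV EGFP+ replicate 2, and 1772 without no UV tdTomato+ replicate 1. All p-values measure the spread between 2 mice a group, pooled over 4 groups. The main fit took the EGFP+ and tdTomato+ libraries of a mouse as independent.

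**Figure D1:**
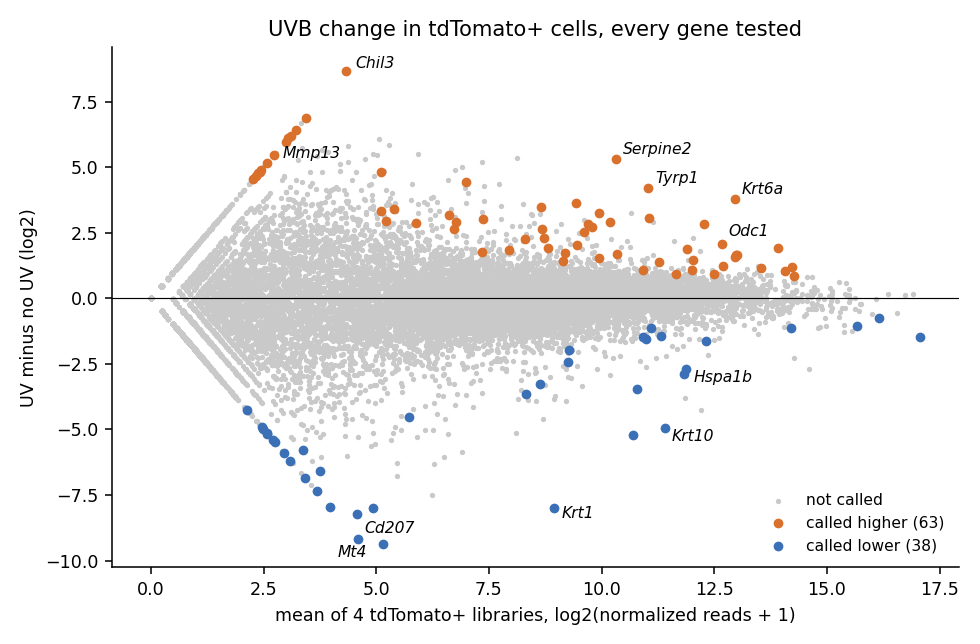
Mean of the 4 tdTomato+ libraries on the x axis, as log2(normalized reads + 1), against the UV minus no UV difference in log2 units on the y axis, 1 point for each of the 18070 genes tested; grey points did not pass, orange points (63) were called higher and blue points (38) lower. Krt1, Cd207 and Mt4 lie at the bottom, at differences of -7.98, -9.18 and -9.35, and Chil3 at the top, at 8.66.

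Both main keratins of the suprabasal layers fell. Krt10, the acidic keratin of differentiating keratinocytes (chromosome 11, 99385254 to 99397449, GRCm38.p6), had 12359 and 18394 normalized reads in the 2 libraries without UV and 673 and 351 in the 2 with UV. Krt1, its basic partner (chromosome 15, 101845426 to 101850786), had 5874 and 10598 without UV and 54.1 and 16.7 with UV. For both keratins the lowest library without UV stood far above the highest with UV. Krt10 fell by 4.95 ± 0.37 (SE) log2 units (limma adjusted p = 0.0101) and Krt1 fell by 7.98 ± 0.80 (adjusted p = 0.0133), and both were called in all 12 settings that kept every library. The stretch just before a RefSeq start of Krt10 is shown because it holds the TATA box of this strongly lowered gene, in capitals from base -26 (GRCm38.p6, chr11:99389365-99389400, minus strand).
Krt10: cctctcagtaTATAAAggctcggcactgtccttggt
Of the 17 tested members of the suprabasal list, 0 were called higher and 2 lower, 9 had both UV libraries below both others and 0 above, and their median difference was -0.75 against -0.09 over all genes. Dsg1a and Dsc1, adhesion proteins of suprabasal desmosomes, stood at -2.70 ± 0.63 and -3.23 ± 1.16 and did not pass (adjusted p = 0.120 and 0.283). The keratin genes Krt77 and Krt2 of the same layers stood at -5.38 (adjusted p = 0.279) and -2.54 (adjusted p = 0.164), without a call. Krtdap, a secreted protein of the upper epidermis, had 28051 and 31598 without UV and 29533 and 16988 with UV, and the groups overlapped.

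Other genes of stratified epithelium fell too, and Mt4, Serpinb7 and Krt4 had less than 1 normalized read in each UV library. Mt4, the metallothionein of stratified squamous epithelium, had 901 and 906 normalized reads without UV and 0.916 and 0 with UV, a ratio of 1959 (95% exact counting interval 351 to 77441; limma adjusted p = 0.0200). Serpinb7, a protease inhibitor of the upper epidermis, had 655 and 359.7 without UV and 0.916 and 0.927 with UV, a ratio of 581 (160.2 to 4801; adjusted p = 0.0211). Clca3a2, a member of the CLCA family, went from 9467 and 10678 to 528 and 138, and fell by 5.21 ± 0.75 (adjusted p = 0.0344). In each of the 3 genes both mock-treated libraries stood far above both treated ones. Krt4, a keratin of internal stratified epithelia, had 49.9 and 68.5 without UV and 0 reads in both libraries with UV, at least 41.6-fold lower (adjusted p = 0.0309). Bounds of this kind place 3 reads over the group in place of 0, and they and the ratio intervals cover counting error only. The calls of genes near 0 reads depended on the method, since Krt4 had adjusted p = 0.132 with edgeR and 0.0298 with DESeq2.

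In the basal list 0 of 15 were called in either direction, 4 did not overlap upwards and 5 downwards, and the median was -0.04. Over all genes tested, 21.6% did not overlap upwards and 24.5% downwards. Krt5, the partner of Krt14, had 42144 and 57687 without UV and 35163 and 41936 with UV (-0.36 ± 0.28, adjusted p = 0.609). Among 29 tested cornified envelope genes 1 was called higher and 0 lower, with 6 and 7 not overlapping in the respective directions and a median of -0.07. The call was Crnn, which encodes cornulin of squamous epithelium: it had 0 reads without UV and 26.6 and 22.3 normalized reads with UV, at least 14.03-fold higher (limma adjusted p = 0.0379). Crnn did not pass with edgeR (adjusted p = 0.358). Sprr2h, a small proline-rich envelope protein with close copies in its family, had 2.93 and 19.98 without UV and 1692 and 97.4 with UV, so the UV libraries were both higher but far apart (adjusted p = 0.186). Tgm3, the transglutaminase that cross-links the envelope, stood at -3.37 ± 0.85 (adjusted p = 0.142) and Hrnr, hornerin, at -3.14 ± 1.00 (adjusted p = 0.229).

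Krt6a and Serpine2, from the list of stressed and wounded epidermis, rose. Krt6a, the keratin induced at wound edges (chromosome 15, 101689928 to 101694305), had 1488 and 3043 normalized reads without UV and 39195 and 22214 with UV. It rose by 3.79 ± 0.52 (SE) log2 units (limma adjusted p = 0.0292). Serpine2, a secreted inhibitor of thrombin and plasminogen activators (chromosome 1, 79794317 to 79858665), had 359 and 113 without UV and 7650.3 and 8440.2 with UV, and rose by 5.31 ± 0.45 (adjusted p = 0.0101). For both genes the 2 UV libraries were many times above both others, and the UV libraries of Serpine2 were close together. In EGFP+ cells of the same UV mice the mean levels were 30.4 for Krt6a and 1503 for Serpine2, below the tdTomato+ levels. In the whole stress list, 2 of 26 tested genes were called higher and 0 lower, 11 did not overlap upwards and 5 downwards, and the median was 0.53. Krt16, the partner of Krt6, stood at 2.29 ± 0.54 (adjusted p = 0.124), and Slpi, a secreted protease inhibitor, at 2.93 ± 0.52 (adjusted p = 0.0614); neither passed. In the other direction Defb6, a beta-defensin, had 17648 and 23953 without UV and 2599 and 444 with UV (-4.26 ± 0.74, adjusted p = 0.0575), just short of a call. Krt6a has the near-identical copy Krt6b, and reads of the 2 can be split by the counting.

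**Figure D2:**
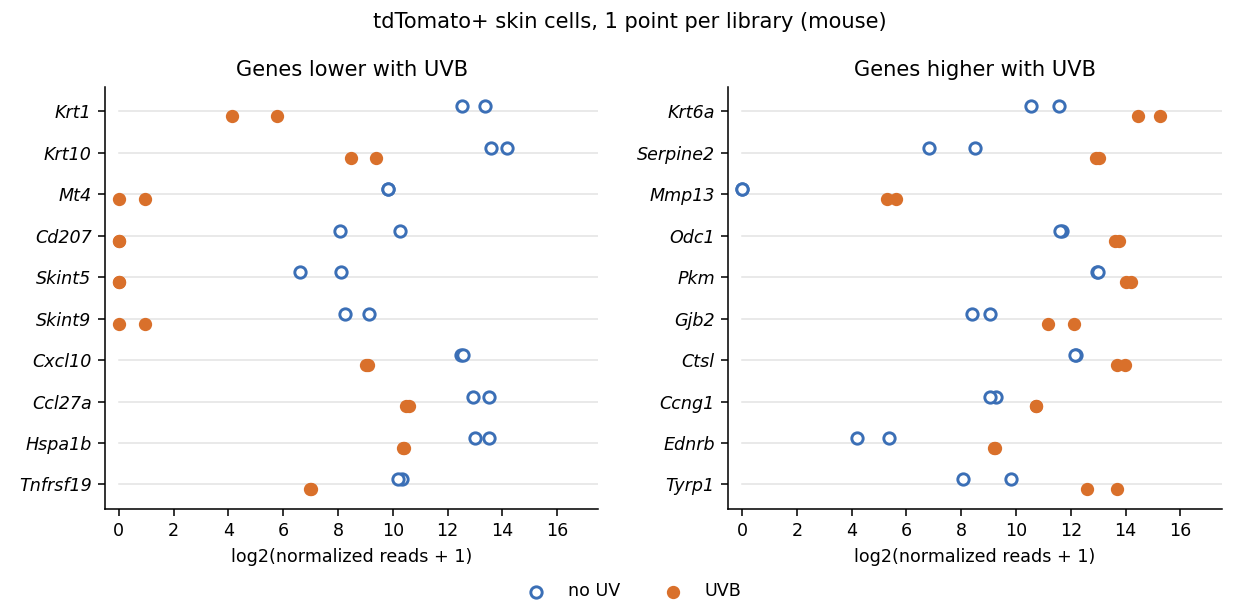
Values of 20 genes in each tdTomato+ library as log2(normalized reads + 1), open blue circles for the 2 libraries without UV and filled orange circles for the 2 with UV; the left panel holds genes lower with UVB and the right panel genes higher with UVB. In every row the 2 colours do not overlap, and points at 0 are libraries with 0 reads.

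Proteases and junction genes rose beside them. Mmp13, a collagenase, had 0 reads in both libraries without UV and 48.6 and 38.02 normalized reads with UV, at least 24.9-fold higher (limma adjusted p = 0.0292; 0.218 with edgeR). The bases before its start are printed because they hold, in capitals, a match to the AP-1 motif TGANTCA from -35 and a TATA box from -16 (GRCm38.p6, chr9:7272469-7272513, plus strand).
Mmp13: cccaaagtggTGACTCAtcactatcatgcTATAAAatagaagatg
Ctsl, the lysosomal protease cathepsin L, had 4616 and 4507 without UV and 13012 and 16130.2 with UV, a rise of 1.67 ± 0.16 (adjusted p = 0.0101). With Serpine2 these made 3 called higher and 0 lower of 31 tested matrix protease and inhibitor genes, whose median was 0.09, with 12 and 4 not overlapping upwards and downwards. The plasminogen activator inhibitor Serpinb2 stood at -2.17 ± 0.53 (adjusted p = 0.137), without a call. Gjb2, the gap junction protein connexin 26, had 528 and 335 without UV and 4446 and 2273 with UV, a rise of 2.91 ± 0.36 (adjusted p = 0.0211). Fabp5, the epidermal fatty acid carrier, rose by 1.90 ± 0.29 (6111 and 10368 against 38331 and 23038, adjusted p = 0.0382). Further lysosomal proteases rose too: Ctsc by 1.87 ± 0.21, Ctsd by 1.67 ± 0.22, Lgmn (legumain) by 1.68 ± 0.23 and Ctsz by 1.07 ± 0.16. With UV, the mean in EGFP+ cells was 2.87 times that in tdTomato+ cells for Lgmn and 3.36 times for Ctsz. It was 0.324 times for Ctsl, 0.467 times for Ctsd and 0.525 times for Ctsc.

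The Langerhans cell gene Cd207 had no reads in the UV libraries. Cd207, which encodes langerin, the defining receptor of Langerhans cells (chromosome 6, 83671207 to 83677857), had 1237 and 271 normalized reads without UV and 0 reads in both libraries with UV. That was at least 611-fold lower (limma adjusted p = 0.0211; edgeR 0.000306). The mock-treated libraries themselves differed several fold, with mouse 1 the higher. Class II genes of antigen-presenting cells were lower in both UV libraries but did not pass: H2-Ab1 had 3126 and 923 without UV and 333 and 247 with UV (-2.56 ± 0.64, adjusted p = 0.139), and H2-Aa stood at -2.67 ± 0.79 (adjusted p = 0.195). Il1r2, the interleukin-1 decoy receptor, had 2394 and 1426 against 81.6 and 207 (adjusted p = 0.157). Of the 21 tested members of the Langerhans and dendritic list, 0 were called higher and 1 lower, 0 did not overlap upwards and 9 downwards, and the median was -1.08. In sorted bulk cells, fewer cells of a type and less RNA per cell cannot be told apart. H2-M2, a nonclassical class I gene, had 631 and 94.2 without UV and 0 reads with UV, at least 298-fold lower (adjusted p = 0.0348).

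The Skint genes, which encode membrane proteins of keratinocytes and thymic epithelium, had both UV libraries below both others in all 11 tested members. Skint9 had 557 and 301 normalized reads without UV and 0.916 and 0 with UV, a ratio of 982 (95% exact counting interval 176 to 38845; limma adjusted p = 0.0229). Skint5 had 95.9 and 278 without UV and 0 reads with UV, at least 123-fold lower (adjusted p = 0.0211). Of the 11, 0 were called higher and 2 lower, and the median was -5.25. Skint11 (-7.11 ± 1.22, adjusted p = 0.0546) and Skint6 (-6.20 ± 1.08, adjusted p = 0.0575) fell just short. Skint1, the member with the known role in selecting epidermal gamma delta T cells, had 908 and 1070.5 without UV and 224 and 89.02 with UV (-2.79 ± 1.05, limma adjusted p = 0.302). The Skint genes are close copies in 1 cluster, and reads may have been shared among them. Of the 20 tested genes of T and NK cells themselves 0 were called in either direction, 12 did not overlap downwards and 1 upwards, and the median was -2.57. Cd3e and Cd3g, subunits of the T cell receptor complex, had 119 and 95.6, and 373 and 495, normalized reads without UV. With UV they had 19.2 and 0, and 62.3 and 1.85 (adjusted p = 0.208 and 0.208). UV replicate 2 was close to 0 for both genes and replicate 1 was between it and the mock-treated pair. Nkg7, a granule protein of cytotoxic lymphocytes, stood at -6.27 ± 1.54 (adjusted p = 0.137). Summed over the list, the T and NK cell genes had 1983 and 2274 normalized reads without UV and 509 and 212 with UV.

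Macrophage genes C1qa and Chil3 rose. C1qa, a subunit of complement C1q made by tissue macrophages, had 0 reads in both libraries without UV and 151 and 25.04 normalized reads with UV, at least 50.8-fold higher (limma adjusted p = 0.0476; edgeR 0.111). Its partners C1qb and C1qc stood at 5.85 ± 1.52 and 5.31 ± 1.56 and did not pass (adjusted p = 0.157 and 0.195). Chil3, a chitinase-like protein secreted by activated macrophages, had 0 reads without UV and 675 and 242 with UV, at least 264-fold higher (adjusted p = 0.0211; edgeR 0.00178), and showed the largest rise of all called genes. In the macrophage and monocyte list 1 of 21 was called higher and 0 lower, 6 did not overlap upwards and 0 downwards, and the median was 2.14. Values of this list differed between the UV mice: the summed level was 3842 and 672 normalized reads without UV and 9935 and 2074 with UV, so UV replicate 2 lay below no UV replicate 1. Lyz2, lysozyme of myeloid cells, showed it most plainly, with 1910.2 and 0 without UV and 4006 and 774 with UV (adjusted p = 0.483).

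Single genes of other myeloid cells passed without the rest of their lists. Cma1, the mast cell chymase, had 0 reads without UV and 38.5 and 31.5 normalized reads with UV, at least 20.1-fold higher (limma adjusted p = 0.0374; edgeR 0.251), but the mast cell protease gene Cpa3 had 0 reads in both UV libraries. Of 6 tested mast cell genes 1 was called higher, with a median of -0.33. Camp, the cathelicidin of neutrophils and of injured epidermis, had 0 reads without UV and 26.6 and 18.5 with UV, at least 12.97-fold higher (adjusted p = 0.0391; edgeR 0.371), and the calprotectin gene S100a8 had 3191 and 354 without UV and 641 and 106 with UV. Of 11 tested neutrophil genes 1 was called higher, with a median of -0.31. Endothelial genes had a median of 1.87 over 16 tested genes, 0 called and 6 not overlapping upwards. Pecam1, a junction protein of endothelium, had 46.9 and 19.98 without UV and 386 and 53.8 with UV, with most of the signal in UV replicate 1 (adjusted p = 0.514).

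The chemokine genes Cxcl10 and Ccl27a fell. Cxcl10, an interferon-induced attractant of T cells, had 5709 and 6056 normalized reads without UV and 542 and 518 with UV. Ccl27a, made by keratinocytes to attract skin-homing T cells, had 11665 and 7837 without UV and 1548 and 1429 with UV. In each gene the libraries of a group lay close together and the groups far apart. Cxcl10 fell by 3.47 ± 0.45 (SE) log2 units (limma adjusted p = 0.0255) and Ccl27a fell by 2.68 ± 0.37 (adjusted p = 0.0292), and Ccl27a has near-identical copies in the mouse genome between which reads could be split. Part of the Cxcl10 promoter is shown for the motifs known to control this gene: capitals mark the interferon element AAANNGAAA from -212, the NF-kB motif GGNNTTTCC (on the opposite strand) from -158 and the AP-1 motif from -74 (GRCm38.p6, chr5:92348947-92349111, minus strand).
Cxcl10: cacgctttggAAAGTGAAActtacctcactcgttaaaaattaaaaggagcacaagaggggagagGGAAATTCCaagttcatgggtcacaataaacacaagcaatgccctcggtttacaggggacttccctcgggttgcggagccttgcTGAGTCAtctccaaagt
Of 37 tested cytokine and chemokine genes 0 were called higher and 2 lower, 7 did not overlap upwards and 15 downwards, and the median was -0.46. The neutrophil attractant Cxcl3 stood at 4.52 ± 0.91 (adjusted p = 0.0823), Ccl20, which attracts Langerhans cell precursors, at -3.01 ± 0.86 (adjusted p = 0.186), and Cxcl14, a chemokine of resting epidermis, at 1.01 ± 0.26 (adjusted p = 0.144). None of the 3 passed. Interferon response genes had 0 of 36 called, 10 and 5 not overlapping upwards and downwards, and a median of 0.46. Their summed level went the other way, with 15141 and 13472 normalized reads without UV and 10789.5 and 11852 with UV. Ifi204, a DNA sensor of the interferon-inducible p200 family, stood at 5.42 ± 0.97 (limma adjusted p = 0.0614). Immediate early genes, whose transcripts appear within minutes of a stimulus, had 0 of 28 called, 21 not overlapping downwards and 1 upwards, and a median of -0.71 (-0.52 in EGFP+ cells). Atf3, a stress transcription factor of this list, had 41999.7 and 39986 without UV and 24887 and 24404 with UV (-0.73 ± 0.27, adjusted p = 0.289).

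The heat shock gene Hspa1b and the glutathione transferase genes Gstm1 and Mgst3 fell. Hspa1b, the inducible chaperone HSP70, had 8273 and 11801 normalized reads without UV and 1329 and 1368 with UV, and fell by 2.87 ± 0.27 log2 units (limma adjusted p = 0.0101). Its near-identical neighbour Hspa1a, between which and Hspa1b reads cannot be divided with certainty, stood at -2.27 ± 0.46 (adjusted p = 0.0845). A stretch of the Hspa1b promoter is shown for its heat shock element GAANNTTC, in capitals from -104 (GRCm38.p6, chr17:34959293-34959352, minus strand).
Hspa1b: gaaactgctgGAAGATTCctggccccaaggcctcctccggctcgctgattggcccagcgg
Of 22 tested heat shock and unfolded protein genes 0 were called higher and 1 lower, and the median was -0.02. In each direction 5 did not overlap, against 21.6% of all genes tested upwards and 24.5% downwards. Hsp90b1, a chaperone of the endoplasmic reticulum, stood at 0.77 ± 0.15 (adjusted p = 0.0728) and Dnajb1, a partner of HSP70, at -0.95 ± 0.23 (adjusted p = 0.138). Among 26 NRF2 and redox genes 1 was called higher and 1 lower, 16 did not overlap upwards and 7 downwards, and the median was 0.58. Akr1b8, an aldo-keto reductase, rose by 2.71 ± 0.45 (496 and 236 against 2286 and 2211, adjusted p = 0.0476). Gstm1, a glutathione transferase, fell by 1.62 ± 0.20 (8831 and 8948 against 2682 and 3134, adjusted p = 0.0211). Mgst3, a microsomal glutathione transferase outside the list, fell by 1.42 ± 0.24 (adjusted p = 0.0476). Gpx2, an epithelial glutathione peroxidase, stood at 3.26 ± 0.65 and did not pass (adjusted p = 0.0823).

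Among DNA damage genes, Ccng1 rose. Ccng1, cyclin G1, a direct target of p53, had 618 and 534 normalized reads without UV and 1692 and 1685 with UV, and rose by 1.55 ± 0.26 (limma adjusted p = 0.0476). A single unit of a p53 element lies in its promoter, in capitals from -185 (GRCm38.p6, chr11:40755422-40755481, minus strand). Such a unit is only a part of a full p53 element, and full elements were not searched.
Ccng1: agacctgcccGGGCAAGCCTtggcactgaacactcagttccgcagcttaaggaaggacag
Ccng1 was the 1 member called higher of 34 tested p53 targets, of which 0 were called lower, 12 did not overlap upwards, 10 did not overlap downwards, and the median was 0.17. The shares without overlap over all genes tested were 21.6% upwards and 24.5% downwards. Phlda3, an inhibitor of Akt, stood at 1.16 ± 0.28 (adjusted p = 0.133), Aen, a nuclease, at 0.92 ± 0.25 (adjusted p = 0.169) and Tap1, the peptide transporter, at -1.143 ± 0.30 (adjusted p = 0.157). Cdkn1a, which encodes the cell cycle inhibitor p21, had 6154 and 5094 without UV and 8005 and 4824 with UV, and the groups overlapped. In nucleotide excision repair, the pathway that removes UV dimers, 0 of 30 genes were called, 8 did not overlap upwards and 6 downwards, and the median was 0.07. Cell cycle genes had 0 of 30 called, 14 and 2 not overlapping upwards and downwards, and a median of 0.36; the replication helicase gene Mcm4 stood at 0.89 ± 0.20 (adjusted p = 0.106). Apoptosis and pyroptosis genes had 0 of 26 called and a median of 0.34.

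Metabolic genes that rose included glycolytic enzymes. Pkm, pyruvate kinase, had 7852 and 8173 normalized reads without UV and 18847 and 16561 with UV, and rose by 1.141 ± 0.15 (limma adjusted p = 0.0232). Ldha, lactate dehydrogenase, had 12669 and 12780.1 without UV and 33674 and 24629 with UV, a rise of 1.18 ± 0.19 (adjusted p = 0.0397). Of 20 tested glycolysis and hypoxia genes these 2 were called higher and 0 lower, 12 did not overlap upwards and 4 downwards, and the median was 0.78 (0.05 in EGFP+ cells). Among the 16 tested vitamin D and retinoid genes 2 were called higher and 0 lower, 7 and 5 did not overlap upwards and downwards, and the median was 0.12. Dhcr7, which consumes the precursor of vitamin D3 in cholesterol synthesis, had 334 and 358 without UV and 1046 and 819 with UV, and rose by 1.42 ± 0.22 (adjusted p = 0.0382). Stra6, the retinol receptor, stood at -5.33 ± 0.95 (adjusted p = 0.0614) and Cyp24a1, which degrades active vitamin D, at 5.48 ± 1.46 (adjusted p = 0.162), neither called. Apoe, the lipid carrier apolipoprotein E, fell by 1.48 ± 0.22 (206178 and 255911 against 87904 and 77033, adjusted p = 0.0354). In the sebocyte and barrier lipid list 1 of 28 was called lower and 0 higher, with a median of -0.29: Mc5r, through which melanocortins act on sebaceous glands, had 33.3 and 25.7 without UV and 0 reads with UV, at least 21.8-fold lower (adjusted p = 0.0354; edgeR 0.292).

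The polyamine enzyme genes Odc1 and Sms, which are on no list, were called in opposite directions. Odc1, ornithine decarboxylase, the first enzyme of polyamine synthesis, had 3238 and 3143 normalized reads without UV and 13996 and 12662 with UV, and rose by 2.06 ± 0.21 (limma adjusted p = 0.0137). Sms, spermine synthase, went from 1391 and 1079 to 282 and 338, and fell by 1.99 ± 0.30 (adjusted p = 0.0373). In both genes the libraries of a group lay close together.

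Of the 24 tested genes of the EGF family and paracrine list 1 was called higher and 0 lower, 11 and 6 did not overlap upwards and downwards, and the median was 0.94 (0.66 when members with no reads in a group take the value of their bound). Areg, amphiregulin, had 440.1 and 173 without UV and 2024 and 2413 with UV (3.00 ± 0.83, limma adjusted p = 0.178). The EGF family ligand Epgn stood at 1.80 ± 0.56 (adjusted p = 0.215) and Nrg1, neuregulin 1, at 4.03 ± 1.03 (adjusted p = 0.149), neither called. Among receptors and transcription factors, Tnfrsf19, a receptor of the TNF family found in hair follicles, had 1276 and 1179 without UV and 128 and 125 with UV, and fell by 3.26 ± 0.31 (adjusted p = 0.0101). Ahr, the aryl hydrocarbon receptor, which binds a tryptophan product of UVB, had 1139 and 1793 against 259 and 265, and fell by 2.44 ± 0.40 (adjusted p = 0.0476). Ikzf2, the transcription factor Helios, fell by 4.51 ± 0.59 (299 and 213 against 10.1 and 10.2, adjusted p = 0.0259).

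Melanocyte genes were higher in the tdTomato+ libraries of the UV mice. Dct, which encodes dopachrome tautomerase of melanin synthesis, had 2733 and 1270.3 normalized reads without UV and 10214 and 17032 with UV. Tyrp1, the tyrosinase-related protein of melanosomes, had 894 and 265 without UV and 6146 and 13243 with UV. Ednrb, the endothelin receptor of melanocytes, had 40.1 and 17.1 without UV and 586 and 605 with UV. All 3 genes had both UV libraries above both others, with replicate 1 the higher of the mock-treated pair. Ednrb rose by 4.45 ± 0.42 (limma adjusted p = 0.0101), Tyrp1 by 4.21 ± 0.52 (adjusted p = 0.0211) and Dct by 2.82 ± 0.35 (adjusted p = 0.0211). Mlana, Pmel, Slc45a2, Gpnmb and Kit were called too, with rises of 3.49, 3.05, 2.91, 3.26 and 3.18. Of 16 tested members of the melanocyte list 8 were called higher and 0 lower, 13 did not overlap upwards and 0 downwards, and the median was 2.98 (0.11 in EGFP+ cells); Melk, a kinase of dividing cells, is on this list in error. The E-box CATGTG, bound by MITF, is printed in capitals in the promoters of Tyrp1 from -46 (GRCm38.p6, chr4:80834157-80834212, plus strand) and Dct from -232 (on the opposite strand, so that it reads CACATG) and -150 (chr14:118052381-118052488, minus strand).
Tyrp1: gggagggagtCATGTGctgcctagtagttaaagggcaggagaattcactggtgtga
Dct: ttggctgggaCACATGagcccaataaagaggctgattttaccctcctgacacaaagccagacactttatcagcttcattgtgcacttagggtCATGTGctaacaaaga

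The level of the 8 called melanocyte genes in tdTomato+ cells was a small percentage of that in EGFP+ cells of the same mouse. It was between 0.571% and 1.30% (median 1.08%) in mouse 1, between 0.172% and 0.780% (median 0.388%) in mouse 2, between 2.52% and 9.35% (median 4.45%) in mouse 3 and between 6.20% and 9.85% (median 7.55%) in mouse 4. Both UV mice were above both mock-treated mice for each of the 8 genes, which were chosen by their rise in tdTomato+ cells. Of the uncalled members of the list, Tyr, Sox10, Oca2, Trpm1 and Slc24a5 kept this order. Mitf, with 3.73% and 8.30% without UV and 6.89% and 3.98% with UV, did not. Rab27a, with 5.04% and 3.02% against 3.87% and 5.83%, did not either. The part of melanocytes in the tdTomato+ sort in the rises of the 8 genes was not tested. Of the 63 genes called higher, 19 had a mean in EGFP+ cells with UV at least 5-fold above that in tdTomato+ cells with UV. They were these 8 and Tacc1, Psen2, Syngr1, Mlph, Ptgds, Gm2115, Nceh1, Plxnc1, Tfpi, Aldh3b1 and a gene listed under the date symbol 4-Sep. Another 11 were higher in EGFP+ cells by less than 5-fold, and 33, with Krt6a, Serpine2, Odc1 and Mmp13 among them, were at or below the tdTomato+ level. The same shares were not counted over all genes tested, so this split does not set the risers apart from other genes. Plxnc1, a semaphorin receptor with 16.6 and 1.43 normalized reads without UV and 152 and 217 with UV, had a mean of 2851 in EGFP+ cells with UV. Ptgds, prostaglandin D2 synthase, with 343 and 111 against 2074 and 2838, had a mean of 37949 there.

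**Figure D3:**
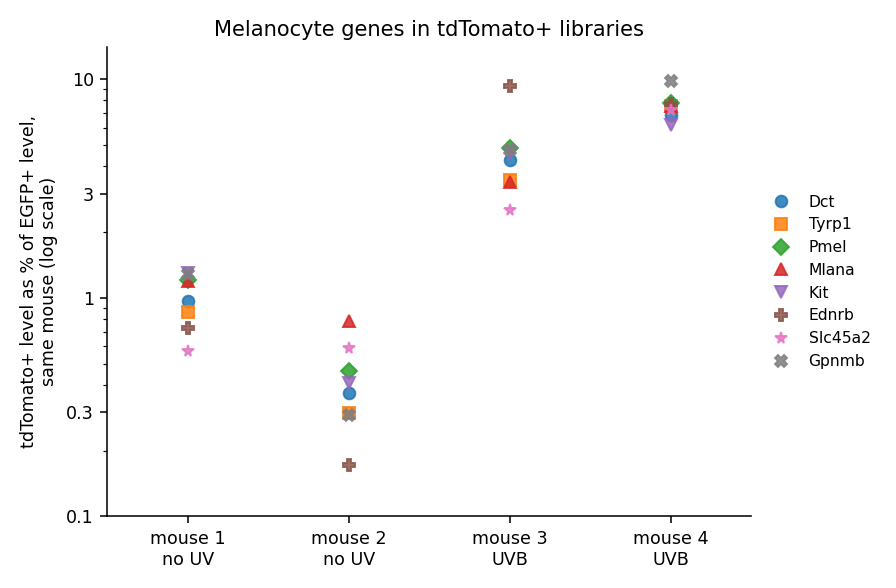
Level of the 8 called melanocyte genes in tdTomato+ cells as a percentage of the level in EGFP+ cells of the same mouse (y axis, log scale), by mouse (x axis), 1 symbol per gene. The medians were 1.08% and 0.388% in the 2 mice without UV and 4.45% and 7.55% in the 2 mice with UV.

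The change with UVB was set beside that of EGFP+ cells by the difference of the 2 changes. Of 18070 genes, 1 (0.00553%) differed at an adjusted p under 0.05 by limma. It was Odc1, which rose in tdTomato+ cells, while in EGFP+ cells it had a mean of 6591 without UV and 2883 with UV (-1.23 ± 0.21 log2 units). The difference between the 2 changes was 3.29 ± 0.30 (limma adjusted p = 0.0496). This fit did not pair the 2 libraries of a mouse, and with mouse as a block the count of genes called was also 1. At an unadjusted p under 0.05 there were 1814 genes, and edgeR called 75 and DESeq2 291. Without no UV tdTomato+ replicate 1 the count was 1297, without UV EGFP+ replicate 1 it was 1018, and without any 1 of the other 6 libraries it was 0. Next in order were Ctsl (2.19 ± 0.22, adjusted p = 0.0598), Krt10 (-4.78 ± 0.52, adjusted p = 0.0706) and Serpine2 (5.46 ± 0.63, adjusted p = 0.0788), none of which passed. For the remaining called genes no difference from melanocytes was shown.

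**Figure D4:**
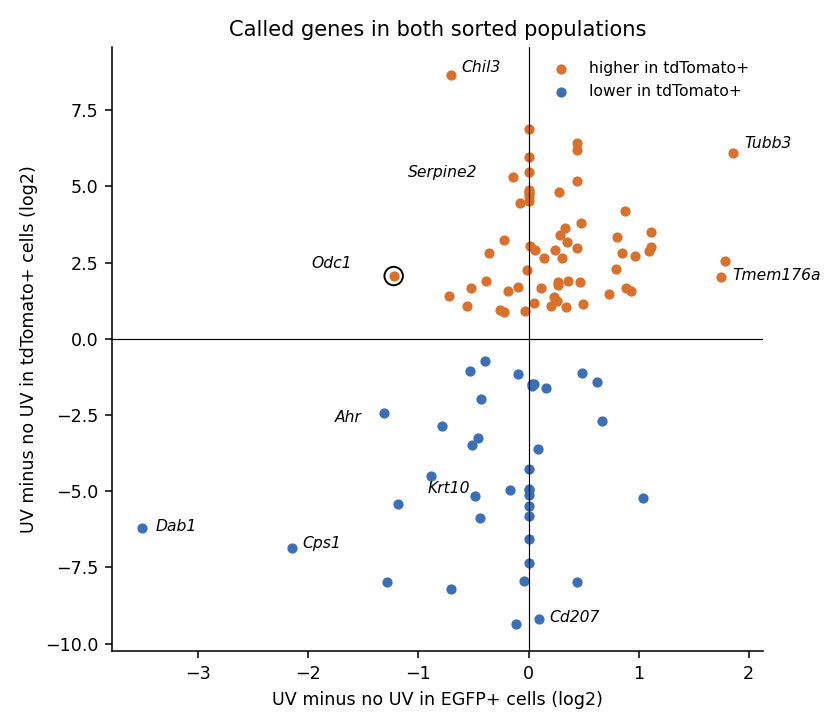
UV minus no UV difference in EGFP+ cells (x axis) against that in tdTomato+ cells (y axis), both in log2 units, for the 101 genes called in tdTomato+ cells, orange where higher and blue where lower. Odc1, circled, lies at -1.23 in EGFP+ and 2.06 in tdTomato+ cells.

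No gene was called in the fibroblast, hair follicle, Schwann cell, adipocyte, pericyte and skeletal muscle lists. Fibroblast and matrix genes had 0 of 23 called, 11 not overlapping downwards and 3 upwards, and a median of -0.68; Col1a1, a chain of type I collagen, had 1418 and 1474 normalized reads without UV and 87.05 and 104 with UV (-3.91 ± 0.91, limma adjusted p = 0.119). Hair follicle genes had 0 of 26 called, 14 and 6 not overlapping downwards and upwards, and a median of -0.76; Lgr5, a receptor of follicle stem cells, stood at -1.60 ± 0.58 (adjusted p = 0.287) and Krt75, a companion layer keratin, at 3.84 ± 1.22 (adjusted p = 0.230). Schwann cell and glia genes had a median of 1.09 over 13 tested, adipocyte genes -0.95 over 10, pericyte and smooth muscle genes -0.40 over 11 and skeletal muscle genes -0.02 over 8, with 0 called in each. The 14 housekeeping genes had 0 called and a median of 0.13.

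**Figure D5:**
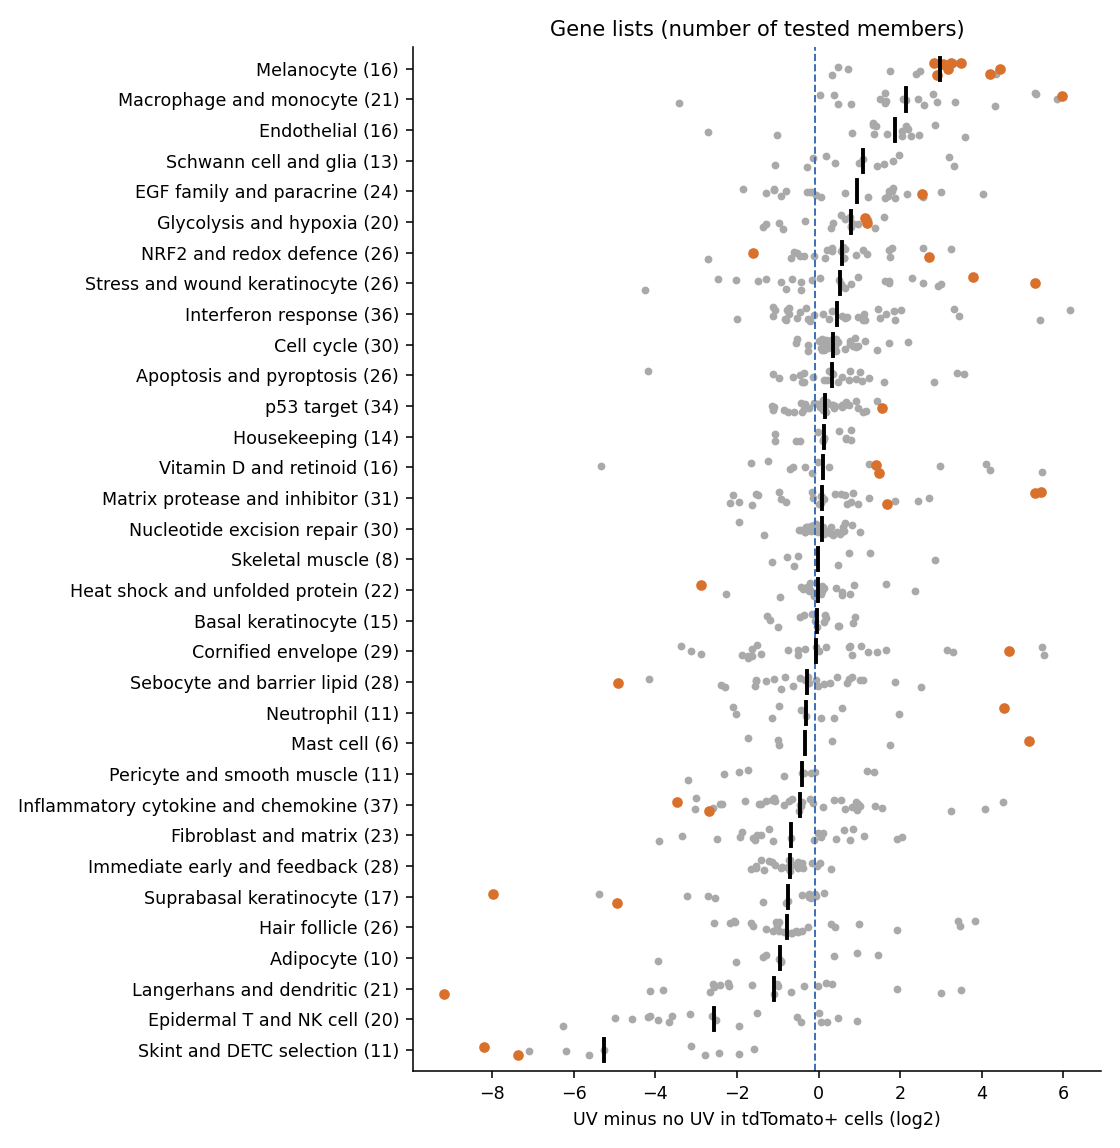
UV minus no UV difference in tdTomato+ cells in log2 units (x axis) for the tested members of 33 gene lists (y axis, number tested in brackets), 1 point per gene, orange where called and grey where not; black bars are list medians and the dashed line is the median of all genes tested, -0.09. Medians run from -5.25 for the Skint genes to 2.98 for the melanocyte genes.

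Further called genes were mostly outside the lists. Among the largest falls, Cps1, a carbamoyl phosphate synthetase, had 120.3 and 109.9 normalized reads without UV and Dab1, an adaptor of reelin signalling, 73.4 and 71.4, and both had 0 reads with UV, at least 83.95-fold and 52.5-fold lower. Pik3c2g, a class II phosphoinositide 3-kinase, had 89.99 and 188 without UV against 0.916 and 0, and Gadl1 had 94.9 and 61.4 against 0 and 0.927. In none of these 4 genes did the groups overlap. Ackr2, Nat8l, Svs5, Kcnj16, Prr29 and A430093F15Rik also had 0 reads in both UV libraries and bounds of at least 13.01-fold to 35.7-fold. Pkib, an inhibitor of protein kinase A, fell by 3.63 ± 0.41 (limma adjusted p = 0.0200), and Eid1, Fam213a, Cst3, Dgcr6, Tmsb4x and H3f3b fell by between 0.73 and 1.53. Among the largest rises, Slc38a5, a glutamine transporter, had 0 reads without UV and 98.96 and 137 with UV, at least 67.8-fold higher. Tubb3, a tubulin best known from neurons, had 0 without UV and 112 and 40.8 with UV, at least 43.9-fold higher, with a mean of 294 in EGFP+ cells with UV. C1qtnf7, Stac2 and Cyp4f18 also had 0 reads in both libraries without UV and bounds of at least 15.3-fold to 18.8-fold, and the RIKEN gene 2300002M23Rik and the predicted gene Gm32511 of at least 42.1-fold and 52.7-fold. Fah, Efemp2, Tspan4, Tmem176a, Slc19a1, Flot2, Arpc1b, Atp6v1b2, Degs1, Wdr1, Cd63, Eif3b, Ddost and Tagln2 rose by between 0.87 and 2.83.

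Promoter motifs were counted as a description. The 250 bases before the start were searched on both strands in 32851 RefSeq promoters, of which 64 belonged to 51 of the 63 risers and 43 to 29 of the 38 fallers. The AP-1 motif TGANTCA was in 6.75% of all promoters, in 4 of the 64 and in 5 of the 43, the latter those of Ccl27a, Cd207, Clca3a2, Cxcl10 and Serpinb7. The NF-kB motif GGNNTTTCC was in 4.93% of all, 2 of 64 and 5 of 43, and the interferon element AAANNGAAA in 9.37%, 6 and 7. A single unit of the p53 element, not the full element, was in 7.13% of all, 8 of 64 and 1 of 43. The heat shock element GAANNTTC was in 6.69%, 2 and 2. The TATA box TATAAA was in 12.4%, 6 and 10, the antioxidant motif TGACNNNGC in 10.2%, 5 and 5, the CRE TGACGTCA in 1.55%, 2 and 0, and the E-box CATGTG, chosen after the values were seen, in 12.3%, 7 and 3. Some of these motifs can overlap, and a match is a string of letters and not a shown binding site.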

How the data were processed

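RNA of tdTomato+ and EGFP+ cells sorted from 4 mice was sequenced after oligo dT enrichment with a kit that does not mark strand, so antisense and overlapping genes cannot be told apart. The submitters' processing notes name the mm10 build and the tools TopHat2 2.0.12, Cufflinks 2.2.1, FastQC and DESeq2 1.14.1, and the sources used here give no read counter or annotation. The values the authors deposited are a normalized signal, the read count of each gene over the size factor of its library, per the file headers. Whole reads were recovered from them for 195368 of 195368 values (100%) within 0.01 read. The deposited table also has a log2 fold change with its error, a score (the Wald statistic) and p-values for EGFP+ against tdTomato+ cells, per the file headers, which were not used. Symbols turned into dates (27) were kept as listed.

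The members of the comparison and the gene lists were chosen with earlier results of these data known. In R 4.3.3, limma 3.58.1 was fitted to log2(value + 1) over all 8 libraries with 1 mean per group and a trended prior, for the 18070 genes whose mean reached 1 in any group, with Benjamini-Hochberg adjustment at 0.05. A fold change on this scale understates the change of low genes. Because whole reads could be recovered, edgeR 4.0.16 (quasi-likelihood, 240 genes called) and DESeq2 1.42.0 were alternatives. With 2 mice against 2, an exact permutation test of a single gene cannot pass the threshold and was not used. Data were simulated for UV against no UV in tdTomato+ cells (17181 genes tested). Of genes changed by 4 log2 units 42 of 67 were called (62.7%), of those changed by 2, 13 of 67 (19.4%), and of those changed by 1, 1 of 66 (1.52%). Beside these, 11 of 16981 unchanged genes were called, a larger part of all calls than the threshold of 0.05 allows on average. The changed genes were drawn only from genes well above 0 reads without UV, so these shares do not cover called genes with 0 reads in a group.

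Named genes were 5 markers (Krt10, Krt1, Krt6a, Cd207, Serpine2), the 12 largest rises and falls of calls whose higher group averaged 5 or more normalized reads and whose libraries did not overlap, leaving out predicted symbols, every called list member, up to 4 members per list with the smallest p, and defining cell type genes; genes outside this rule were named after their values were seen. A few results are not reported here. Deviations of a mouse from its group mean correlated across genes between EGFP+ and tdTomato+ cells (0.0873 in the mock-treated pair, 0.0562 in the UV pair). Promoter sequences and gene positions are from RefSeq (GRCm38.p6), matched by symbol.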

Additional observations from a re-analysis of the deposited data

Results flagged for a closer look

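Odc1, ornithine decarboxylase, had UV changes that differed between the sorted populations by the test of the difference itself. Its rise in tdTomato+ cells exceeded its change in EGFP+ cells by 3.29 ± 0.30 (SE) log2 units (limma adjusted p = 0.0496). In tdTomato+ cells both UV libraries lay above both others, and in EGFP+ cells the mean was 6591 normalized reads without UV and 2883 with UV. The call was lost in the fits listed below with a count of 0 for the difference. No group had 4 or more libraries, so no library was tested as an outlier.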

How the results depend on the processing

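The counts of called genes were far less stable than the directions. For the UV response of tdTomato+ cells, 101 genes (63 higher, 38 lower) became 240 (132, 108) with edgeR, 629 (358, 271) with DESeq2, 218 (132, 86) with quantile normalization, 29 (21, 8) with a pseudocount of 0.1, 211 (106, 105) with a pseudocount of 5, 105 (41, 64) without the trend and 183 (80, 103) with only the 4 tdTomato+ libraries. Of the 101, 79 were among the edgeR calls, 86 among those of DESeq2 and 40 among those without the trend. With 1 library left out the count ran from 0 to 1772, with 0 to 432 higher and 0 to 1340 lower; without no UV tdTomato+ replicate 2 it was 77, of which 10 were higher. For the difference between populations, 1 gene became 75 (57 higher, 18 lower) with edgeR, 291 (208, 83) with DESeq2 and 14 (10, 4) with quantile normalization. It became 0 with rescaling, either pseudocount, no filter or no trend. With 1 library left out it ran from 0 to 1297, with 0 to 876 higher and 0 to 1045 lower. Mouse as a block also gave 1. The replicate block by number, whose pairs are different mice, gave 70 genes (45 higher, 25 lower), 66 of them among the 101; deviations of same-numbered libraries correlated at 0.0759. The causes of these shifts were not tested. Lyz2, which was not called, stood at -0.12 without no UV tdTomato+ replicate 2 and at 10.78 without replicate 1. Of the list medians under alternatives, 19 moved by more than the median error of their members and 679 did not. Genes below about 3 reads in a library are limited by depth, and bounds stand in for their folds.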
